A study of Homo sapiens with 12 samples.

Results

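siDYN-2 was compared with siDYN-1 in NCI-H1975 and HCC827, established human lung adenocarcinoma lines that carry activating EGFR mutations, across the 4 libraries of cells that received one of these siRNAs, of 12 libraries in the series. The siDYN libraries carry 48 h in their labels, and 1 library of each line with a control siRNA (siCON), for which the labels give no time, was the reference. The other 6 libraries, of the same lines with DMSO or with the compound 18E at 2.5 or 5 µM for 24 h, were used once, for a description. There was 1 library per line and siRNA, so the lines were the replicates (n = 2 lines), and nothing in the labels says that a line was cultured more than once. The p-values measure only the disagreement of the lines, and the siRNA and its culture cannot be told apart within a line. The labels do not spell out DYN. The title of the series speaks of LIC1, which is another name for DYNC1LI1.

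DYNC1LI1 encodes a light intermediate chain of cytoplasmic dynein 1, the motor that carries vesicles, organelles and mitotic cargo toward the minus ends of microtubules, and this chain links the motor to its cargo adaptors. A small interfering RNA guides the RNA-induced silencing complex to a complementary messenger RNA, which is then cut. It can also lower transcripts that match only its seed. For this reason a knockdown is usually done with more than one siRNA, and genes that differ between siRNAs of one target are looked at for unequal knockdown and for off-target effects. The siRNA sequences were not used here, so no match between an siRNA and a transcript was sought.

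DYNC1LI1 was lower than with siCON in all 4 siDYN libraries, and lowest with siDYN-2 in both lines. Levels are FPKM as deposited, which are fragments scaled to transcript length and library size, and are given in the order siCON, siDYN-1, siDYN-2. DYNC1LI1 had 23.7, 5.10 and 3.04 FPKM in NCI-H1975 and 16.3, 2.42 and 1.22 in HCC827. The level with siDYN-2 was 0.596 times that with siDYN-1 in NCI-H1975 and 0.504 times in HCC827. On the log2(FPKM + 1) scale used for all differences here, siDYN-2 minus siDYN-1 was -0.59 in NCI-H1975 and -0.62 in HCC827 (fitted -0.61 ± 0.16, SE), which did not pass the test (limma, Benjamini-Hochberg adjusted p = 0.111).

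The 2 siDYN-2 libraries differed from the other 4 siRNA libraries in the number of genes listed at 0: 1519 (NCI-H1975) and 1570 (HCC827) of 17442 genes were listed at 0 against 2061 to 2212. There were 106 genes above 0 in both siDYN-2 libraries and listed at 0 in the other 4, of which 103 stayed under 1 FPKM, and 15 genes with that pattern for siDYN-1. No called gene below and 2 of the 82 genes past 2-fold in both lines were listed at 0 in any library. The part of this in the results was not tested. FPKM totals ran from 605451 to 685680, and read totals are unknown. All 9 markers of lung adenocarcinoma lines were at 6.62 FPKM or more in the siDYN libraries. For blood, endothelium and stroma, 17 of 22 markers were in the table, and 11 of these reached at most 1 FPKM in any siRNA library, PTPRC among them (0.08 to 0.36 FPKM). The 7 blood markers summed to 62.6 and 73.3 FPKM (siCON), 56.8 and 106 (siDYN-1) and 44 and 112 (siDYN-2), mostly CD68 (34.1 to 110 FPKM), a protein of lysosomes. Their part in the results was not tested.

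**Figure D1:**
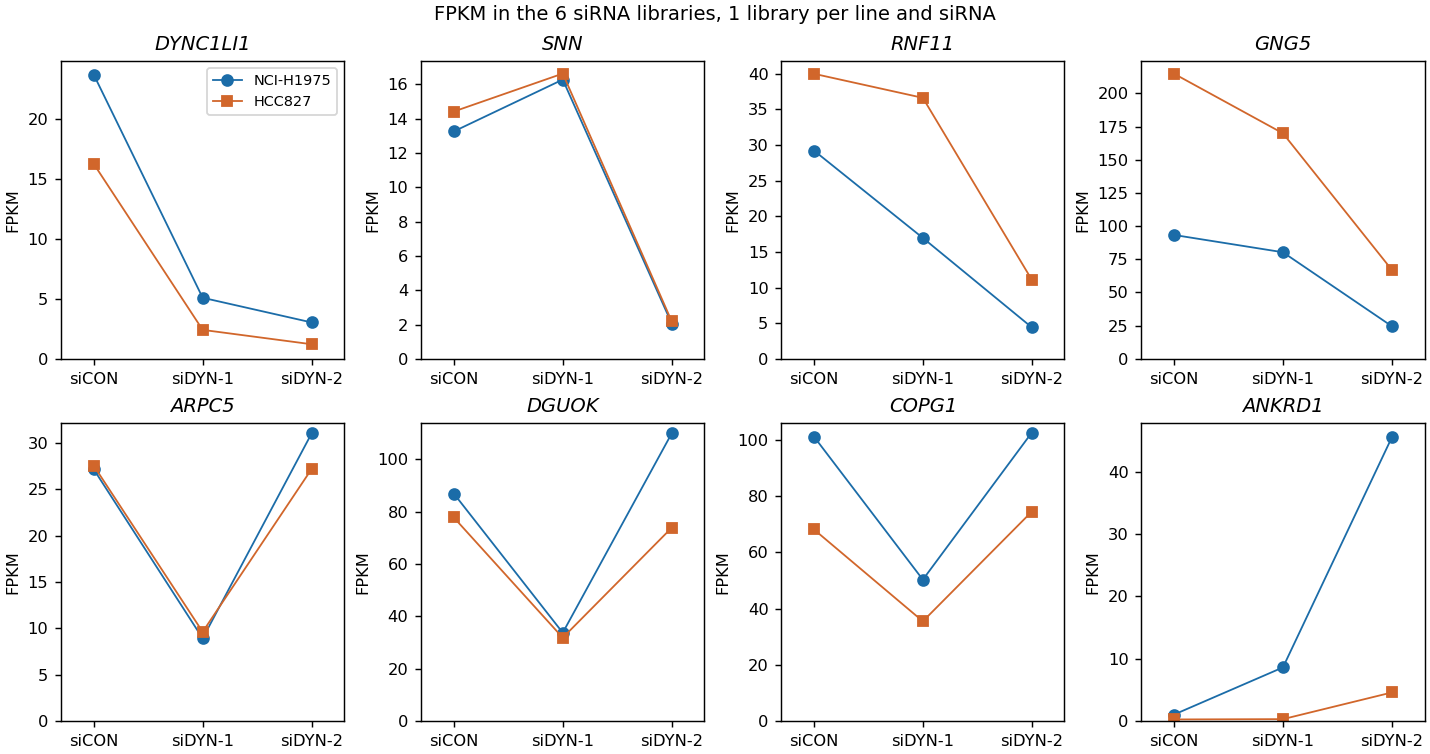
FPKM of 8 genes (vertical axes, linear, from 0) with siCON, siDYN-1 and siDYN-2 (horizontal axes); blue circles are NCI-H1975, orange squares HCC827, 1 library each, joined within a line to guide the eye. DYNC1LI1 is low with both siRNAs, SNN, RNF11 and GNG5 are low with siDYN-2, ARPC5, DGUOK and COPG1 are low with siDYN-1, and ANKRD1 is highest with siDYN-2.

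The siRNAs differed alike in both lines for a small set of genes. Genes entered the test when 2 or more of the 6 siRNA libraries reached 1 FPKM, which left 11718. Of these 71 passed an adjusted p of 0.05 (0.606% of those tested), 46 higher (0.393%) and 25 lower (0.213%) with siDYN-2. All 71 had one sign in both lines, which the test favours because its spread is the disagreement of the lines. By size alone, 54 genes were at least 2-fold higher (0.461%) and 28 at least 2-fold lower (0.239%) with siDYN-2 in both lines, of which 32 and 17 were also called. At the edge of this size rule, CCDC74B was the last gene inside with a smaller difference of 1.00 and ISG20 the first outside with 0.99 among the higher genes. Among the lower genes TBPL1 was the last inside and PRR11 the first outside, with smaller differences of 1.015 and 0.999 in size.

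By direction alone, 38% of the tested genes were higher and 27.7% lower with siDYN-2 in both lines. Across genes, which are not independent replicates, the lines' differences had a Pearson r of 0.47 (n = 11718 genes, a description). HCC827 had more large differences, with 333 genes at least 2-fold higher (2.84%) and 115 lower (0.981%), against 165 (1.41%) and 117 (0.998%) in NCI-H1975. Only 4 genes were 2-fold apart in opposite directions.

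The count of calls depended on the fit. No gene passed without the filter on low values (2836 at an unadjusted p under 0.05, against 2454 in the reported fit), and 1 passed without a variance trend or without the HCC827 siDYN-1 library, in both cases SNN. With quantile normalization the calls were 43 higher and 36 lower, and with median centring 52 and 41, a more even split than 46 and 25. The size rule gave 39 higher and 33 lower, and 40 and 32, under these 2 scalings, and 150 and 63 with a pseudocount of 0.1 in place of 1, which stretches the differences of low genes. No called gene changed sign under any alternative tried.

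**Figure D2:**
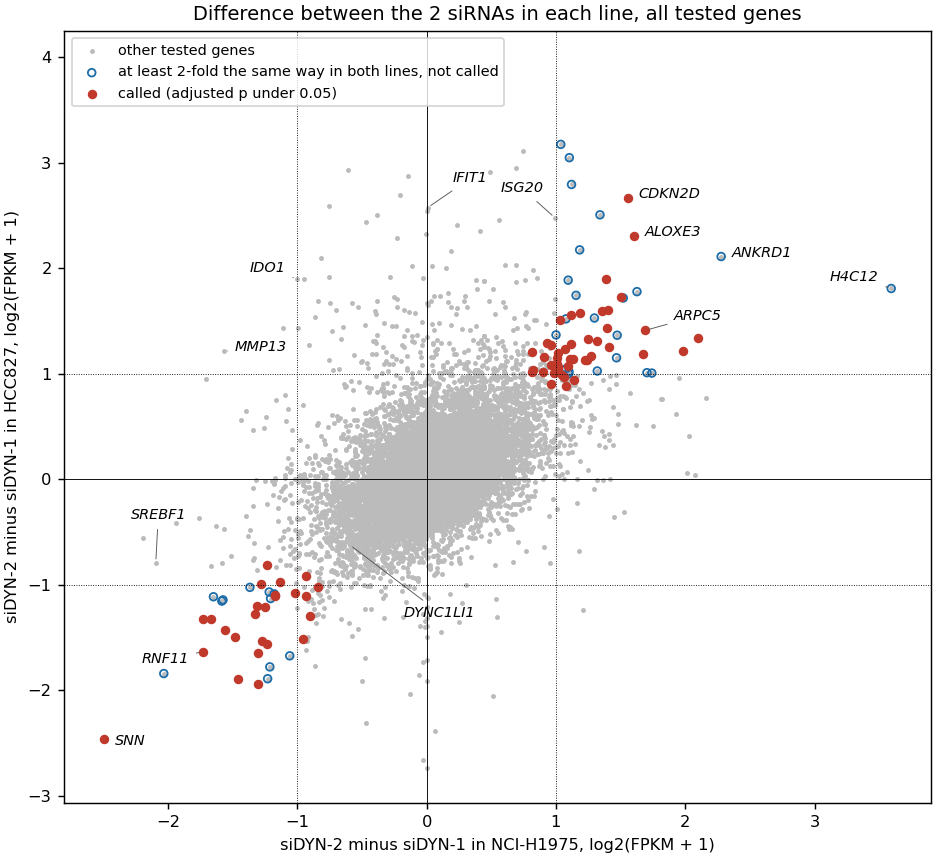
siDYN-2 minus siDYN-1 for each of 11718 tested genes in NCI-H1975 (horizontal) and HCC827 (vertical), in log2(FPKM + 1); red points are the 71 called genes, blue circles the genes at least 2-fold apart the same way in both lines that were not called, grey points all others, and dotted lines mark 2-fold. SNN lies alone at the lower left at -2.50 and -2.47, and the few genes past 2-fold in opposite directions lie at the upper left and lower right.

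Several genes were low with siDYN-2 and near the siCON level with siDYN-1. SNN, which encodes stannin, a small membrane protein known for its role in the toxicity of organotin compounds, had the largest called difference. It had 13.3, 16.3 and 2.06 FPKM in NCI-H1975 and 14.4, 16.6 and 2.19 in HCC827. This was 15.5% and 15.2% of siCON for siDYN-2 (DYNC1LI1 itself 12.8% and 7.49%), while with siDYN-1 it was above siCON in both lines. The difference was -2.48 ± 0.13 (SE; limma, adjusted p = 0.0125, the smallest of all genes). SNN is a protein-coding gene on the plus strand of chromosome 16, from 11668414 to 11679159 (GRCh38, GENCODE 29).

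RNF11, a small RING-finger protein that takes part in ubiquitin-dependent control of inflammatory signalling, had 29.2, 17.0 and 4.42 FPKM in NCI-H1975 and 40.0, 36.6 and 11.1 in HCC827. It was thus also below siCON with siDYN-1 in both lines, and the 2 siRNAs differed by -1.68 ± 0.20 (adjusted p = 0.0431). GNG5, a gamma subunit of heterotrimeric G proteins, had 93.4, 80.3 and 24.6 FPKM in NCI-H1975 and 215, 170 and 67.0 in HCC827 (difference -1.50 ± 0.13, adjusted p = 0.0389). With siDYN-2 RNF11 was at 15.1% and 27.7% of siCON in the 2 lines and GNG5 at 26.3% and 31.2%, the lowest of the 3 libraries in each case. RNF11 lies on the plus strand of chromosome 1 from 51236271 to 51273455, and GNG5 on its minus strand from 84498325 to 84506565 (GRCh38, GENCODE 29).

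ARL2BP, a binding partner of the small GTPase ARL2, had 25.8, 22.7 and 7.04 FPKM in NCI-H1975 and 27.9, 23.7 and 8.18 in HCC827 (difference -1.49 ± 0.13, adjusted p = 0.0389). In the annotation 80.4% of its exonic bases overlap PLLP on the opposite strand, and the use of strand by the authors' counting is not given in the sources used here. CRTAP, a cartilage-associated protein needed for prolyl hydroxylation of collagen, differed by -1.14 ± 0.13. EIF1AX, a translation initiation factor on the X chromosome, differed by -1.40 ± 0.14, with 51.1, 33.1 and 13.1 FPKM in NCI-H1975 and 35.5, 29.7 and 9.63 in HCC827. EIF1AX was below siCON with siDYN-1 as well, at 64.7% and 83.8%. CRTAP was at 81.0% and 87.9% of siCON with siDYN-1 and at 35% and 39.1% with siDYN-2.

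Over all tested genes, 22 were at least 2-fold below siCON with siDYN-2 in both lines and within 0.5 of it with siDYN-1, a pattern called here mainly with siDYN-2. Of these 10 were called in the direct comparison, against 0.606% of all tested genes. The pattern itself requires the siRNAs to differ the same way in both lines, so nothing is read from this count. The 10 include WDR45B, a phosphoinositide-binding protein of the autophagy pathway (-1.23 ± 0.14), TBPL1, a TBP-like transcription factor (-1.04 ± 0.14), URI1, a prefoldin-like chaperone (-1.02 ± 0.14), and AKR1B10, an aldo-keto reductase and NRF2 target (-1.68 ± 0.23). TBPL1 had 9.70, 9.71 and 4.30 FPKM in NCI-H1975 and 6.75, 6.65 and 2.63 in HCC827, so that siCON and siDYN-1 were nearly level. Of the exonic bases of TBPL1, 34.5% overlap SLC2A12 on the opposite strand.

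The reverse pattern, low with siDYN-1 but near siCON with siDYN-2, was found in 9 tested genes. Of these 7 were called in the direct comparison, against 0.606% of all tested genes. This pattern too requires the siRNAs to differ, so nothing is read from the count. ARPC5, a subunit of the actin-nucleating Arp2/3 complex, had 27.2, 8.91 and 31.0 FPKM in NCI-H1975 and 27.6, 9.61 and 27.2 in HCC827. This was 32.8% and 34.9% of siCON for siDYN-1 and 114% and 98.7% for siDYN-2, a difference of 1.55 ± 0.14 (adjusted p = 0.0389). ARPC5 lies on the minus strand of chromosome 1, from 183620846 to 183635757 (GRCh38, GENCODE 29).

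DGUOK, the mitochondrial deoxyguanosine kinase, had 86.9, 33.7 and 110 FPKM in NCI-H1975 and 77.8, 31.8 and 73.9 in HCC827 (difference 1.43 ± 0.16). HSDL1, a dehydrogenase-like protein, had 10.8, 2.85 and 8.16 FPKM and 7.97, 2.10 and 6.79 FPKM (1.29 ± 0.14). In both genes the siDYN-1 library was the lowest of the 3 in each line. The other called genes of this kind were ANKRD40 (1.02 ± 0.13), MBIP, a subunit of the ATAC acetyltransferase complex (1.00 ± 0.13), and the membrane traffic genes VAMP3, an endosomal SNARE (1.11 ± 0.14), and RAB1A, the GTPase of transport from the endoplasmic reticulum to the Golgi (0.93 ± 0.12). RAB1A had 81.4, 33.0 and 65.4 FPKM in NCI-H1975, with 40.5% of siCON left by siDYN-1 and 80.3% by siDYN-2. In HCC827 these were 43.5% and 82.2%. Of its exonic bases 22.9% overlap CEP68 on the opposite strand.

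A further 27 tested genes (0.23%) were at least 2-fold above siCON with siDYN-2 in both lines and within 0.5 of it with siDYN-1. The reverse held for 2 (0.0171%), ALPP and ALPG. Some of the 27, GCNA and H4C12 among them, passed the filter only through siDYN-2, so nothing is read from these counts. ALOXE3, an epidermis-type lipoxygenase, had 1.67, 2.07 and 8.33 FPKM in NCI-H1975 and 2.49, 2.58 and 16.6 in HCC827 (difference 1.95 ± 0.20, adjusted p = 0.0389). ATF3, a stress-induced transcription factor, had 5.00, 7.00 and 30.6 FPKM and 5.88, 8.19 and 20.4 FPKM (1.60 ± 0.22, adjusted p = 0.0489). ATP6V1F, a subunit of the proton pump of lysosomes, was well expressed and had 284, 366 and 763 FPKM in NCI-H1975 and 180, 229 and 449 in HCC827 (1.01 ± 0.11, adjusted p = 0.0389), and 23.7% of its exonic bases overlap KCP on the opposite strand. In these 3 genes siCON and siDYN-1 lay close together and siDYN-2 apart in each line.

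A pair of these genes are known from germ cells. GCNA, a germ-cell nuclear protein, had 0.17, 0.31 and 2.72 FPKM in NCI-H1975 and 0.31, 0.29 and 3.28 in HCC827, and MAJIN, a meiotic telomere protein, 1.17, 1.62 and 4.74 and 6.55, 7.25 and 17.2. Both were called (1.62 ± 0.15 and 1.14 ± 0.14), and at such levels the scale understates the fold. GCNA reached 1 FPKM with siDYN-2 only. It thus passed the filter through the group where it was high, and nothing is read from its call. PLA2G4C, a cytosolic phospholipase, differed by 1.33 ± 0.16. TREX1, a nuclease that degrades DNA in the cytosol, differed by 1.72 ± 0.22, but all of its exonic bases (100%) overlap ATRIP on the same strand. ALPG, a placental-type alkaline phosphatase with near-identical relatives, went the other way: it had 3.19, 15.7 and 4.03 FPKM in NCI-H1975 and 0.42, 3.79 and 0.91 in HCC827 (-1.53 ± 0.16), and reads may be shared with ALPP.

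**Figure D3:**
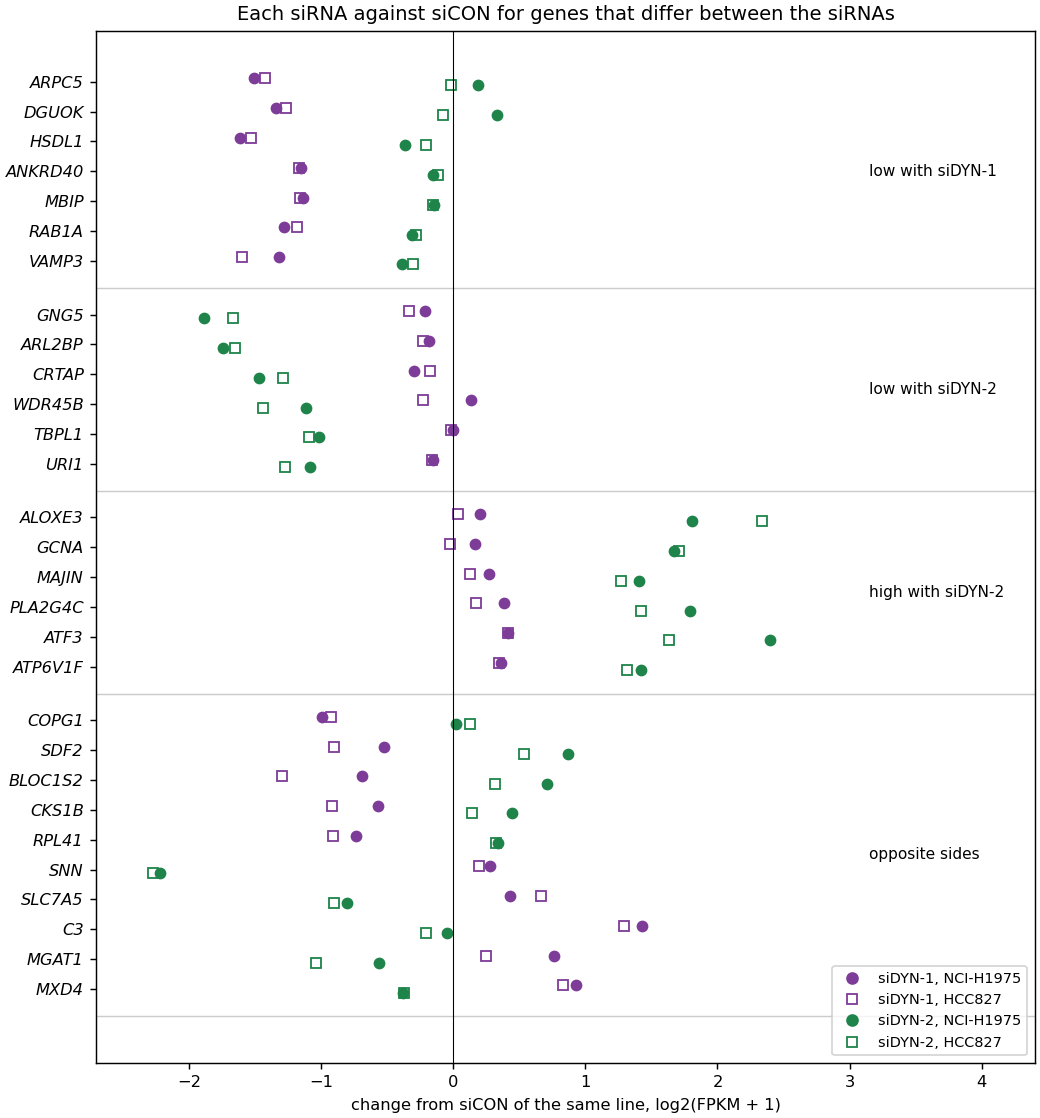
Change from siCON of the same line in log2(FPKM + 1) (horizontal axis) for 29 called genes (rows, in 4 blocks); purple symbols are siDYN-1 and green symbols siDYN-2, filled circles NCI-H1975 and open squares HCC827, 1 library each. ARPC5 lies at -1.51 and -1.43 with siDYN-1 and at 0.19 and -0.02 with siDYN-2, and the order is reversed for GNG5, at -0.21 and -0.34 with siDYN-1 and -1.88 and -1.67 with siDYN-2.

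Of the 54 genes at least 2-fold higher with siDYN-2 and the 28 at least 2-fold lower, 22 and 9 lay on opposite sides of siCON with the 2 siRNAs in both lines (40.7% and 32.1%), against 7.73% of all tested genes. A large difference between the siRNAs makes this class more likely by construction, so nothing is read from the excess. Among these, only SDF2 and NDRG4 were at least 0.5 away from siCON with each siRNA in each line. SDF2, a protein of the endoplasmic reticulum, had 52.2, 36.0 and 96.1 FPKM in NCI-H1975 and 47.0, 24.7 and 68.6 in HCC827 (difference 1.42 ± 0.14, adjusted p = 0.0389). COPG1, a coat subunit of COPI vesicles, had 101, 50.3 and 103 FPKM and 68.2, 35.5 and 74.5 FPKM (1.03 ± 0.12, adjusted p = 0.0418), and so was near siCON with siDYN-2. RPL41, a very short ribosomal protein, had 5692, 3419 and 7192 FPKM and 4357, 2322 and 5462 FPKM (1.15 ± 0.11, adjusted p = 0.0389).

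In the next genes siDYN-1 was lowest and siDYN-2 highest of the 3 libraries in each line. CKS1B, a cofactor of cyclin-dependent kinases, had 347, 233 and 474 FPKM in NCI-H1975 and 342, 181 and 378 in HCC827 (1.04 ± 0.13). BLOC1S2, a subunit of complexes that position lysosomes, had 29.8, 18.1 and 49.4 FPKM and 21.4, 8.13 and 26.8 FPKM (1.51 ± 0.17). MORN4 differed by 1.48 ± 0.16, RPIA, an enzyme of the pentose phosphate pathway, by 1.38 ± 0.17, CDC34, a ubiquitin-conjugating enzyme, by 1.18 ± 0.12, and the chemokine CXCL16 by 1.31 ± 0.13. ARPC1B, another Arp2/3 subunit, and ATP6V0B, a membrane subunit of the lysosomal proton pump, were likewise below siCON with siDYN-1 in both lines. They differed by 0.93 ± 0.12 and 1.03 ± 0.12 and were under 2-fold in NCI-H1975 (0.82 and 0.91). All genes of this paragraph were called. Of the exonic bases of ARPC1B 32.4% overlap another annotated gene on the same strand.

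Among the lower genes on opposite sides, SLC7A5, the light chain of the LAT1 amino acid transporter, had 124, 167 and 70.3 FPKM in NCI-H1975 and 120, 191 and 64.0 in HCC827 (-1.40 ± 0.13, adjusted p = 0.0389). C3, the central complement component, had 1.44, 5.58 and 1.36 FPKM and 16.2, 40.9 and 13.9 FPKM (-1.49 ± 0.14). Its siDYN-1 level was the highest of the 3 in each line. MGAT1, which starts the synthesis of complex N-glycans, differed by -1.30 ± 0.17, MXD4, a repressor of the MYC network, by -1.26 ± 0.13, and SPRR3, a small proline-rich protein of squamous cells, by -1.48 ± 0.16. SPRR3 reached 1 FPKM with siDYN-1 only. It thus passed the filter through the group where it was high, and nothing is read from its call. BTG2, an antiproliferative p53 target, was above siCON with siDYN-1 in both lines and on either side of it with siDYN-2. It had 0.87, 4.48 and 1.22 FPKM and 1.60, 5.89 and 0.79 FPKM (-1.62 ± 0.22, adjusted p = 0.0478).

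The remaining 25 called genes, not described singly, were 17 higher genes (0.92 to 1.64) and 8 lower genes (-0.93 to -1.23).

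Other genes lay on one side of siCON with both siRNAs and further from it with siDYN-2, in both lines. They were 8 of the 54 higher and 4 of the 28 lower genes (14.8% and 14.3%), against 22.1% of all tested genes. Genes of the patterns described above were assigned first and are not counted here, so nothing is read from these shares. RHOB, a small GTPase of endosomes, had 25, 52.5 and 113 FPKM in NCI-H1975 and 5.41, 11.7 and 25.8 in HCC827, a step of about the same size from siDYN-1 to siDYN-2 in both lines (1.08 ± 0.12, adjusted p = 0.0418). PPP1R15A, called but under 2-fold in HCC827, which directs the dephosphorylation of eIF2α, had 19.5, 29.5 and 66.3 FPKM and 20.4, 33.0 and 64.3 FPKM (1.04 ± 0.13, adjusted p = 0.0431). ANKRD1, a target of YAP and TAZ, had 1.02, 8.59 and 45.5 FPKM and 0.24, 0.29 and 4.57 FPKM. Its level with siDYN-1 was far above siCON in NCI-H1975 and level with it in HCC827. The difference of 2.28 in NCI-H1975 and 2.11 in HCC827 was not called (2.19 ± 0.54, adjusted p = 0.106).

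DUSP1, a phosphatase of MAP kinases, had 10.5, 21.4 and 54.0 FPKM in NCI-H1975 and 5.27, 5.30 and 17.2 in HCC827 (1.41 ± 0.24, adjusted p = 0.0568). IVL (involucrin), of the cornified envelope, differed by 1.37 ± 0.32 (adjusted p = 0.092) and the chemokine CXCL2 by 1.18 ± 0.17 (adjusted p = 0.0506). CDKN2D, an inhibitor of the G1 cyclin-dependent kinases, was near siCON with siDYN-1 in HCC827 only. It had 9.52, 14.1 and 43.5 FPKM in NCI-H1975 and 7.03, 6.67 and 47.8 in HCC827 and had the largest called difference among the higher genes (2.11 ± 0.26, adjusted p = 0.0431).

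Each siRNA against siCON shares the siCON libraries with the other, so the counts are given side by side only. With siDYN-1, 56 genes were at least 2-fold above (0.478%) and 35 at least 2-fold below siCON (0.299%) in both lines. With siDYN-2 these were 193 (1.65%) and 63 (0.538%). In the same fit 82 genes passed an adjusted p of 0.05 for siDYN-1 (0.7%) and 2124 for siDYN-2 (18.1%), but the siDYN-1 count ran from 9 to 1456 and the siDYN-2 count from 242 to 2475 when single libraries were left out. The siDYN-1 count was 9 and 166 without the siDYN-1 library of NCI-H1975 and HCC827, 19 and 134 without the siCON library, and 1456 without either siDYN-2 library. The siDYN-2 count was 242 without the NCI-H1975 siCON library and 1214 without the NCI-H1975 siDYN-2 library. Whether the siRNAs differ in the number of genes they move was not tested.

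Gene lists, chosen with results of these data known, were read by counts and medians beside the same over all tested genes (38% higher and 27.7% lower in both lines, median 0.04, and 20.9% with an unadjusted p under 0.05). Of the lists described, 0 to 2 members were called in each direction unless said otherwise. Of 9 tested subunits of cytoplasmic dynein 1, 4 were higher and 2 lower with siDYN-2 in both lines (median 0.08), and the extremes were DYNC1LI1 (-0.61) and the light chain DYNLL2 (0.52). DYNC1LI2, the paralogous light intermediate chain, had 27.1, 21.4 and 20.1 FPKM in NCI-H1975 and 36.2, 24.4 and 23.6 in HCC827. It was thus below siCON with both siRNAs in both lines, and the fitted difference between the siRNAs was -0.07 ± 0.13.

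Of 12 tested subunits of dynactin, the dynein activator, 6 were higher and 3 lower in both lines (median 0.03, which is -0.02 with quantile normalization or median centring). ACTR1B, a filament actin-related protein of dynactin, had 30.9, 37.3 and 60.3 FPKM in NCI-H1975 and 28.8, 38.4 and 64.4 in HCC827 (0.70 ± 0.13, adjusted p = 0.0611), while its paralogue ACTR1A had a difference of -0.38 ± 0.12 (adjusted p = 0.159). CAPZA1, the capping protein at the end of that filament, had -0.41 ± 0.20 and PAFAH1B1 (LIS1), a dynein regulator, 0.44 ± 0.14 (adjusted p = 0.294 and 0.161). No member of the dynein, dynactin or regulator lists was called by limma (smallest adjusted p = 0.0611), and 2 of 9, 2 of 12 and 1 of 3 members had an unadjusted p under 0.05, against 20.9% of all tested genes. The 17 tested dynein cargo adaptors had 7 members each way, and among 16 tested kinesins, which run toward plus ends, KIF1C had the largest difference (-0.77 ± 0.14, adjusted p = 0.0611). Among dynamins, which are membrane-cutting GTPases and no part of the dynein motor, DNM1 had -0.63 ± 0.15 (adjusted p = 0.102).

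Tubulins held 1 gene past 2-fold: TUBA4A, an alpha-tubulin isotype, had 48.2, 65.2 and 183 FPKM in NCI-H1975 and 102, 75.5 and 196 in HCC827 (1.42 ± 0.24, adjusted p = 0.0572). TUBA1A, whose coding sequence is close to that of other isotypes, had 29.2, 110 and 178 FPKM and 7.00, 7.65 and 30.6 FPKM (1.28 ± 0.38). Of 13 tested tubulins 7 were higher and 1 lower in both lines (median 0.14).

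Immediate early genes, which are induced within minutes to hours of growth factor or stress signals, were mostly higher with siDYN-2. Of 14 tested members 9 were higher and 1 lower in both lines, with a median of 0.59. The exception was BTG2, and ATF3 was the called member among the higher genes. JUN, an AP-1 subunit, had 17.7, 29.1 and 63.7 FPKM in NCI-H1975 and 33.4, 27.7 and 57.2 in HCC827 (1.06 ± 0.26, adjusted p = 0.102). Of 11 tested TGF-beta and YAP targets 7 were higher and 0 lower in both lines (median 0.31): besides ANKRD1, CCN1 (CYR61) had 1.11 ± 0.20 and CCN2 (CTGF), a matricellular protein like CCN1, 0.84 ± 0.20. No member was called by limma, and 4 of 11 had an unadjusted p under 0.05, against 20.9% of all tested genes.

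Of 7 tested histone genes in the list of replication-dependent histones 4 were higher and 1 lower in both lines (median 0.34). All genes of that family were then counted by symbol, a choice made after the values were seen, and 21 of 34 were higher and 3 lower in both lines (median 0.50). None of the 34 was called by limma. An unadjusted p under 0.05 was found for 17 of them and for 20.9% of all tested genes, and nothing is read from this for a family widened after its values were seen. H2AC18 had 62.1, 125 and 360 FPKM in NCI-H1975 and 12.6, 48.3 and 161 in HCC827 (1.62 ± 0.25, adjusted p = 0.0522), and reads may be shared with its near-identical copy. H4C12 was listed at 0 with siCON and siDYN-1 in both lines and had 11.1 and 2.50 FPKM with siDYN-2, through which alone it passed the filter. H1-2, a linker histone, had a difference of 0.83 ± 0.26 (adjusted p = 0.151). Messenger RNAs of these histones carry no poly(A) tail, so their level depends on how RNA was selected, which the labels do not say.

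Of 38 tested genes of the G1/S step and DNA replication 21 were higher and 4 lower in both lines, and the median was larger in NCI-H1975 (0.37) than in HCC827 (0.04). Against siCON the medians were -0.42 with siDYN-1 and 0.01 with siDYN-2 in NCI-H1975, and -0.06 and -0.03 in HCC827. By limma 7 of the 38 had an unadjusted p under 0.05, a share near the 20.9% of all tested genes. CCNE2 (cyclin E2) had 6.07, 3.12 and 7.93 FPKM in NCI-H1975 and 9.69, 6.75 and 17.9 in HCC827 and was called (1.2 ± 0.17, adjusted p = 0.0491). Of its exonic bases 37% overlap INTS8 on the opposite strand. E2F2 had 0.83 ± 0.19 and RRM1, a subunit of ribonucleotide reductase, 0.59 ± 0.13. Of 35 tested genes of G2 and mitosis 3 were higher and 22 lower in both lines (median -0.20, with -0.63 for siDYN-2 and -0.42 for siDYN-1 against siCON in NCI-H1975, and -0.46 and -0.27 in HCC827). In bulk RNA, fewer cells in a phase and less RNA per cell cannot be told apart.

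ANLN (anillin), of the contractile ring, had 129, 73.9 and 47.9 FPKM in NCI-H1975 and 102, 60.5 and 31.3 in HCC827 (-0.77 ± 0.13, adjusted p = 0.0605). AURKA, a kinase of spindle poles, had -0.68 ± 0.12 and CDC25B, a phosphatase that activates CDK1, -0.60 ± 0.12. Both were lowest of the 3 libraries with siDYN-2 in each line. No member of the G2 and mitosis list was called by limma, and 8 of 35 had an unadjusted p under 0.05, a share near the 20.9% of all tested genes.

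Autophagy is a subject of the series by its title. Of 37 tested genes of the autophagosome machinery 19 were higher and 5 lower with siDYN-2 in both lines (median 0.16). Its members WDR45 and WDR45B are paralogues and went opposite ways: WDR45 had 24.0, 34.1 and 57.9 FPKM in NCI-H1975 and 12.4, 13.5 and 30.8 in HCC827 (0.94 ± 0.15, adjusted p = 0.0531), whereas WDR45B had 35.3, 38.8 and 15.7 FPKM and 44.5, 37.9 and 15.8 FPKM and was the called member. GABARAPL1, which coats autophagosome membranes, had 7.06, 7.69 and 12.4 FPKM and 25.5, 18.2 and 36.1 FPKM (0.79 ± 0.17, adjusted p = 0.0843). In the autophagosome list 6 of 37 members had an unadjusted p under 0.05 by limma, a smaller share than the 20.9% of all tested genes. Autophagy receptors had 6 of 16 higher and 7 lower, and their median of 0.02 turned to -0.05 with quantile normalization and -0.03 with median centring.

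Lysosome genes had 16 of 36 tested members higher and 12 lower in both lines (median 0.06), close to the median of all genes. The called pump subunits ATP6V1F and ATP6V0B are not in that list, and none of its members was called by limma (13 of 36 with an unadjusted p under 0.05, against 20.9% of all tested genes). ATP6V1B2, another subunit of the proton pump, had 0.84 ± 0.13 and CTSC, cathepsin C, -0.81 ± 0.12 (adjusted p = 0.0506 for both). In the list of COPI, COPII and golgins 13 of 30 were higher and 6 lower (median 0.08), and besides COPG1 the largest differences were those of GOLGA1, a golgin (0.83 ± 0.16), and SAR1B, the GTPase that starts COPII coats (0.76 ± 0.14).

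Cytosolic ribosomal proteins were lower with siDYN-2 in HCC827 in all 30 tested members (median -0.32) and near level in NCI-H1975 (median -0.04). In both lines 17 were lower and 0 higher. Against siCON the medians were 0.16 with siDYN-1 and -0.09 with siDYN-2 in HCC827, and 0.03 with each siRNA in NCI-H1975. By limma 6 of the 30 had an unadjusted p under 0.05, a share near the 20.9% of all tested genes. RPLP0 had 2483, 2413 and 1566 FPKM in NCI-H1975 and 3259, 4287 and 2416 in HCC827 (-0.73 ± 0.13, adjusted p = 0.0653). RPS2 had -0.65 ± 0.11 and RPL10 -0.60 ± 0.11 (adjusted p = 0.0564 and 0.0641), and 34.2% of the exonic bases of RPL10 overlap DNASE1L1 on the opposite strand. RPL41, described above, is not in that list and differed in the other direction. Fatty acid synthesis genes had 8 of 12 lower and 4 higher in both lines (median -0.29). SREBF1, the transcription factor of lipid synthesis, had 47.5, 20.1 and 3.95 FPKM in NCI-H1975 and 37.2, 37.4 and 21.2 in HCC827 (-1.44 ± 0.52, adjusted p = 0.194), and SCD, the stearoyl-CoA desaturase, 165, 32.9 and 15.99 FPKM and 89.2, 47.0 and 32.5 FPKM (-0.76 ± 0.40, adjusted p = 0.332). PGD, of the pentose phosphate pathway and in the list of NRF2 targets, had -0.80 ± 0.13 (adjusted p = 0.0531).

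Squamous differentiation and barrier genes had 10 of 17 lower and 5 higher in both lines (median -0.52), with SPRR3 called and IVL the largest exception. Of 22 tested genes of the unfolded protein response 12 were lower and 4 higher (median -0.11). The chaperone PDIA4 had -0.65 ± 0.12 and CRELD2 -0.74 ± 0.16 (adjusted p = 0.0653 and 0.0856). ATF4 targets had 18 of 34 higher and 7 lower (median 0.12), with ATF3 and PPP1R15A called higher and SLC7A5 called lower. DDIT3 (CHOP) had 27.1, 83.4 and 259 FPKM in NCI-H1975 and 13.7, 29.1 and 41.9 in HCC827 (1.07 ± 0.36, adjusted p = 0.175), and 27.2% of its exonic bases overlap MARS on the opposite strand. The medians of these lists kept their sign under the scalings tried.

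**Figure D4:**
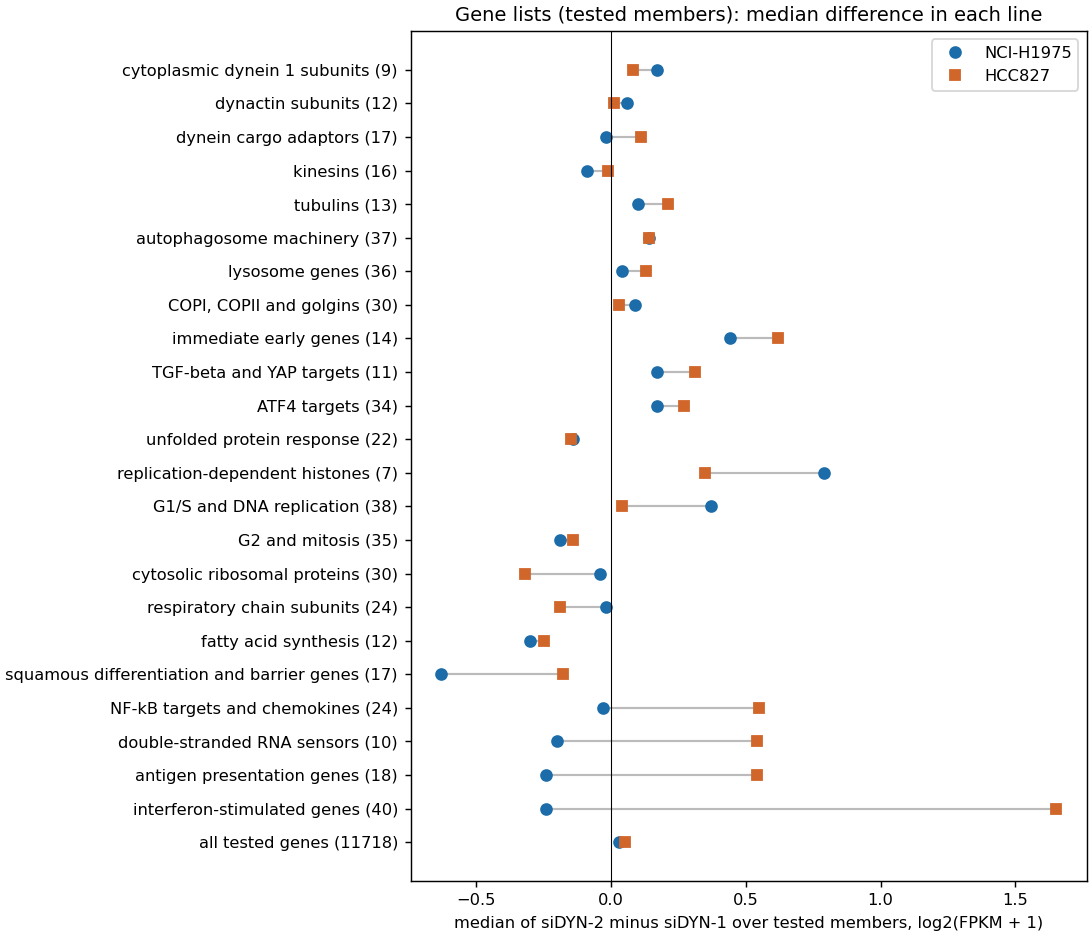
Median of siDYN-2 minus siDYN-1 in log2(FPKM + 1) (horizontal axis) over the tested members of 23 gene lists and over all tested genes (rows, number of tested members in brackets); blue circles are NCI-H1975, orange squares HCC827, and a grey bar joins them. The lines lie close together for most lists and far apart for interferon-stimulated genes, at -0.24 and 1.65.

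Interferon-stimulated genes, which cells switch on through STAT transcription factors after sensing viral or double-stranded RNA, were where the lines disagreed most among the lists. Of 40 tested genes all 40 were higher with siDYN-2 than with siDYN-1 in HCC827, 37 of them at least 2-fold, and they ranged from 0.52 to 2.93 around a median of 1.65. In NCI-H1975 the same genes had 11 higher members, 0 of them at least 2-fold, and ranged from -0.84 to 0.99 around -0.24. In both lines together 11 were higher and 0 lower, and 0 were called by limma (smallest adjusted p = 0.0895). An unadjusted p under 0.05 was found for 4 of the 40, a smaller share than the 20.9% of all tested genes. The levels against siCON differed accordingly. In NCI-H1975, siDYN-1 put 28 genes at least 2-fold above siCON and siDYN-2 23 (medians 1.53 and 1.23). In HCC827 there were 0 with siDYN-1 and 32 with siDYN-2 (medians -0.28 and 1.36). The difference between the lines was not tested, since each line has 1 library per siRNA.

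Promoters of many interferon-stimulated genes are known to carry an element bound by the interferon-activated factor ISGF3. In RefSeq promoters (GRCh38.p14, 250 bases before to 50 after each start) the core of this element, taken as a pair of TTTC separated by any 2 bases and searched on both strands (a pair of GAAA on the other), was found for 22 of 31 interferon-stimulated genes with a promoter in the table (71%), against 362 of 9500 tested genes (3.81%). The other 9 of the 40 genes had no entry and were not searched. Overlapping matches were kept. A match is a description of these letters and not a shown binding site. These genes were listed as interferon-stimulated, and many such promoters are known to carry the element, so nothing is read from the excess. Stretches are shown for the 4 genes described next, to let the element be seen in its setting, each with 20 bases to either side, 5′ to 3′ on the gene's strand, all on plus strands, with the matches in capitals. They lie at chr10:89392487-89392549 (IFIT1), chr1:1013364-1013419 (ISG15), chr2:6877612-6877661 (RSAD2) and chr15:88638927-88638976 (ISG20).
IFIT1: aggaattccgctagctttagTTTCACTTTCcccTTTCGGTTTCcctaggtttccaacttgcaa
ISG15: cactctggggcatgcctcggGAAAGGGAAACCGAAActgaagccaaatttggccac
RSAD2: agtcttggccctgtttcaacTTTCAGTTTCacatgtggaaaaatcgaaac
ISG20: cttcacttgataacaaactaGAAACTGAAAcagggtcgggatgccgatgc

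IFIT1, which binds RNA lacking a self cap, had 24.1, 129 and 130 FPKM in NCI-H1975, level between the siRNAs, and 8.77, 6.38 and 43.0 in HCC827 (0.01 and 2.57). ISG15, a ubiquitin-like protein, had 468, 2326 and 3094 FPKM and 184, 209 and 1073 FPKM (0.41 and 2.36). RSAD2 (viperin), an antiviral enzyme, had 3.29, 11.1 and 11.2 FPKM and 2.25, 1.04 and 10.9 FPKM (0.00 and 2.55). ISG20, an antiviral exonuclease, was higher with siDYN-2 in both lines, with 16.5, 57.6 and 115 FPKM and 12.4, 12.5 and 74.1 FPKM (0.99 and 2.48). With siDYN-1 these 4 genes were at 339% to 535% of siCON in NCI-H1975 and at 46.2% to 113% in HCC827.

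**Figure D5:**
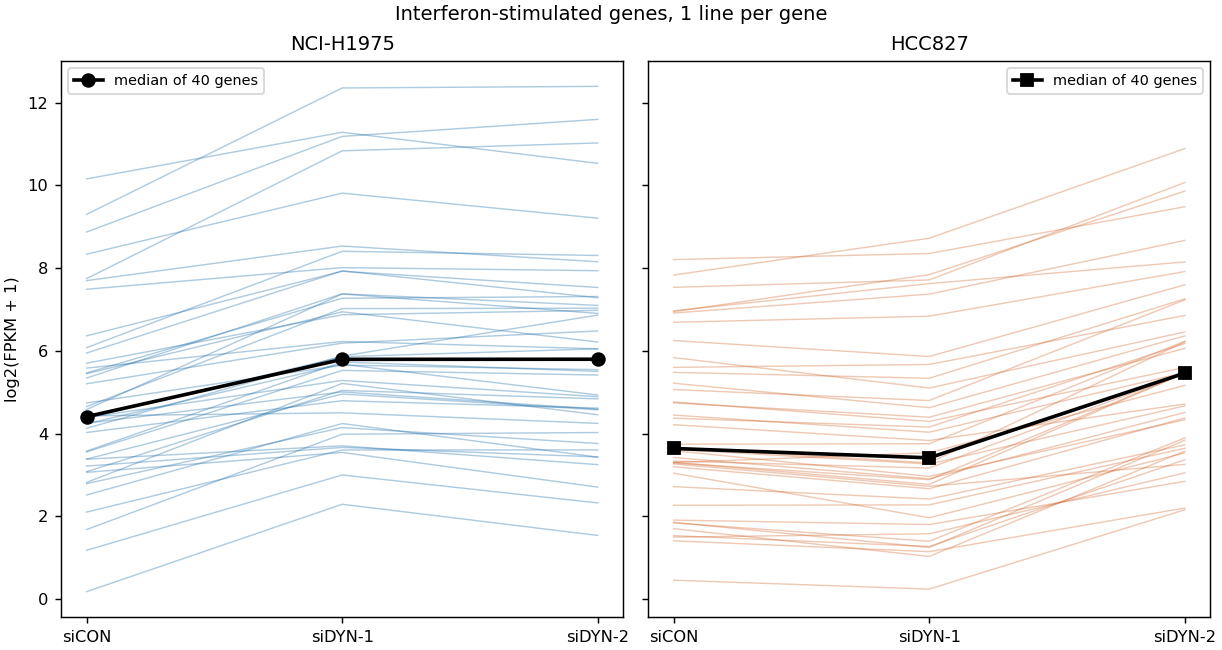
log2(FPKM + 1) of 40 interferon-stimulated genes (vertical axis, 1 thin line per gene) with siCON, siDYN-1 and siDYN-2 in NCI-H1975 (left) and HCC827 (right), 1 library each; black symbols are medians over the genes. In NCI-H1975 most genes are above siCON with both siRNAs, and in HCC827 with siDYN-2 only.

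The medians of the lines had opposite signs in further lists too, a difference that was not tested. Examples are integrins and laminins (-0.29 in NCI-H1975 and 0.10 in HCC827) and cholesterol synthesis (0.18 and -0.08). Only 3 such lists, all of immune genes, are described next. Of 10 tested double-stranded RNA sensors 4 were higher and 1 lower in both lines, with medians of -0.20 in NCI-H1975 and 0.54 in HCC827. Of 18 tested antigen presentation genes 4 were higher and 1 lower, with medians of -0.24 and 0.54. B2M, the light chain of MHC class I, had 655, 1495 and 1844 FPKM in NCI-H1975 and 671, 1425 and 2565 in HCC827, and so was above siCON with siDYN-1 in HCC827 too (0.58 ± 0.16, adjusted p = 0.119). NF-kB targets and chemokines had 12 of 24 higher and 2 lower in both lines (medians -0.03 and 0.55), a larger share higher than among all genes. The members described here, like B2M, were higher with siDYN-2 in both lines. IL6, an inflammatory cytokine, had 5.43, 18.9 and 31.2 FPKM and 4.23, 4.14 and 38.7 FPKM (1.82 ± 0.49), and CXCL8 (IL-8), a neutrophil chemokine, 26.3, 60.9 and 111 FPKM and 118, 175 and 659 FPKM (1.38 ± 0.24, adjusted p = 0.0608).

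The genes that differed between the siRNAs were also looked up in the compound table, whose DMSO controls are other libraries. All 54 higher and 28 lower genes were in it. At 5 µM 18E, 23 of the 54 were above DMSO in both lines (42.6%) and 10 below (18.5%), against 25.5% and 40.8% of 11658 tested genes in that table. At 2.5 µM these were 29 (53.7%) and 5 (9.26%), against 32.3% and 31.8%. At 5 µM, 8 of the 54 were at least 2-fold above DMSO in both lines (0.995% of all): JUN, ALOXE3, GCNA, H2AC18, HSPB8, DUSP1, ANKRD1 and ATF3, of which H2AC18, HSPB8, DUSP1 and ATF3 were so at 2.5 µM too. Of the 28 lower genes 8 were above (28.6%) and 7 below DMSO (25%) in both lines at 5 µM, and 0 were 2-fold away in either direction. No test was run on these counts.

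The genes past 2-fold had shorter transcripts than the rest. The median length was 2268 bases for the higher genes (52 of 54 found in GENCODE 29) and 2587 for the lower genes (27 of 28), against 3282 over 11441 tested genes, and median GC content was 51.2%, 51.5% and 49%. Across genes the difference had a Spearman rho with length of -0.19 in NCI-H1975 and 0.03 in HCC827, and with GC content of -0.05 and 0.05, as a description. With trends in GC content and length removed, 42 higher and 30 lower genes remained past 2-fold, 39 and 26 of them the same genes.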

How the data were processed

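Trizol RNA went into Illumina TruSeq libraries, as the labels' protocols say. Expression is FPKM as deposited by the authors (2 decimals), a unit read from the file headers. Per the submitters' processing notes, Bowtie 0.12.2 and the builds GRCh38.p12 and mm8 (mouse) were involved, in roles not stated. Which quantifier and annotation were used, and whether strand was, is not given in the sources used here. Low values showed no steps of whole reads, so depth is unknown and its precision could not be stated.

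The siRNA file held 17442 complete genes in 17462 lines and the 18E file 16760 in 16800, and the other 20 and 40 lines were left out. Columns were matched to samples by name, with 0 left unmatched. Values were transformed to log2(FPKM + 1), which understates differences of low genes. Genes that reached 1 FPKM in 2 or more of the 6 siRNA libraries were fitted with limma 3.58.1 in R 4.3.3 (treatment plus line, 6 libraries, 2 residual degrees of freedom, variance trend), two-sided, with Benjamini-Hochberg adjustment over all 11718 genes. The fit was run on simulated data with known shifts, where mean fitted sizes were checked against the known ones and no bound was set on calls. The line is the block, since libraries of one line share it. At least 2-fold means a log2 difference of 1 or more.

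Members, lists (39) and tests were chosen with earlier results of these data known. Named genes were DYNC1LI1, called genes (at least 15 per direction), up to 3 members per list with the largest difference, all dynein, dynactin and regulator genes and 5 genes per direction that went opposite ways in the lines. DUSP1, RSAD2, H2AC18, H4C12, NDRG4, CCDC74B, PRR11 and ALPP were named after their values were seen. Some genes are not reported here. Overlaps and positions are from GENCODE 29. Alternatives were a pseudocount of 0.1, no filter, a mean of at least 5 FPKM, quantile normalization, equal FPKM totals, median centring, no variance trend, only the 4 siDYN libraries, no line term, each library left out, and GC content and length trends removed (97.6% of genes covered).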

Additional observations from a re-analysis of the deposited data

Results flagged for a closer look

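Results are given here where the 2 lines moved in opposite directions under the same contrast, siDYN-2 against siDYN-1. With 1 library per line and siRNA, the difference between the lines was not tested for any of them. MMP13, an interstitial collagenase, had 22.0 FPKM with siDYN-1 and 6.75 with siDYN-2 in NCI-H1975 and 0.46 and 2.38 in HCC827, so the difference in HCC827 was 2.78 above that in NCI-H1975 on the log2 scale. IDO1, the interferon-induced enzyme that degrades tryptophan, had 9.53 and 4.25 FPKM in NCI-H1975 and 0.97 and 6.33 in HCC827, a gap between the lines of 2.90. CFB, complement factor B, had 122 and 56.2 FPKM and 167 and 452 FPKM, a gap of 2.54, and 45% of its exonic bases overlap another annotated gene on the same strand. LOC102724788 had 0.27 and 1.93 FPKM in NCI-H1975 and 222 and 93.1 in HCC827, a gap of -2.45.

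Among the gene lists, the median difference in HCC827 exceeded that in NCI-H1975, with opposite signs, by 1.89 for interferon-stimulated genes, 0.74 for double-stranded RNA sensors, 0.78 for antigen presentation genes and 0.58 for NF-kB targets and chemokines. Medians of opposite sign were also found in lists not given here, with smaller gaps.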

How the results depend on the processing

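The count of 71 called genes was 0 without the filter on low values (smallest adjusted p = 0.166, 2836 genes at an unadjusted p under 0.05) and 0 with no replicate block, that is without the line term that pairs the libraries of a line (smallest adjusted p = 0.715, 345 genes), 1 without the variance trend, 33 with equal FPKM totals, 176 with a mean of at least 5 FPKM, 186 with GC content and length trends removed and 386 with only the 4 siDYN libraries. It ran from 1 to 409 when each library was left out: 188, 288 and 400 without the NCI-H1975 siDYN-1, siDYN-2 and siCON library, and 1, 108 and 409 without those of HCC827, where the lone siDYN library is assumed to vary like the other groups. The size counts of 54 and 28 were 150 and 63 with a pseudocount of 0.1 and could not be given with a siDYN library left out. Against siCON, the siDYN-1 count of 82 was 0 without the filter, 371 with a mean of at least 5 FPKM, 46 with equal totals, 197 with median centring and 0 without the variance trend, without the line term or with GC and length trends removed, and with single libraries left out 9 to 1456 (9, 1456 and 19 without the siDYN-1, siDYN-2 and siCON library of NCI-H1975, and 166, 1456 and 134 without those of HCC827). The siDYN-2 count of 2124 was 0 without the filter or the line term, 1358 with GC and length trends removed and 242 to 2475 with single libraries left out, with 1214 without the NCI-H1975 siDYN-2 library. The cause was not tested.

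Of 97 named genes 46 were called in the reported fit; of these 42 were still called with a pseudocount of 0.1, 28 with equal totals and 1 without the HCC827 siDYN-1 library. Signs turned with a pseudocount of 0.1 for MMP13 (0.23, from -0.18) and LOC102724788 (0.60, from -0.02), and with single libraries left out for DYNC1LI2 (0.00), IFIT1 (-0.04), MMP13 (0.85 to 0.88), IDO1 (-0.82 to -0.46), CFB (-0.81 to -0.77) and LOC102724788 (0.88 to 0.92). Depth is unknown, so what it limits could not be stated.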
